A study of Mus musculus with 22 samples.

Results

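The mitochondrial ribosomal proteins are the nuclear-encoded proteins of the ribosome inside mitochondria, and they were taken as all genes of the table whose symbol begins with Mrpl or Mrps followed by a digit. This gave 78 of 17306 genes, 49 with an Mrpl symbol (large subunit) and 29 with an Mrps symbol (small subunit). The symbol does not settle the place of 3 of them: the products of Mrps30 and Mrps18a are built into the large subunit, and that of Mrps36 belongs to the 2-oxoglutarate dehydrogenase complex rather than to the ribosome. A further 6 proteins under other symbols were read as a separate list. They were the ribosomal proteins Dap3, Chchd1, Ptcd3, Aurkaip1 and Gadd45gip1, and Oxa1l, which docks the ribosome at the membrane.

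The mitochondrial ribosome translates the few mRNAs of the mitochondrial genome, whose products are core subunits of the respiratory chain and of ATP synthase. Its rRNAs come from the mitochondrial genome, whereas its proteins come from nuclear genes, are made in the cytosol and are imported, so the particle needs both genomes. Some of its proteins descend from bacterial ribosomal proteins and others were added in the course of mitochondrial evolution, and neurons, with their high demand for respiration, depend on it.

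The study asked how inhibition of FKBP51, a co-chaperone of the glucocorticoid receptor, with the compound SAFit2 acts on joint pain when it is given at disease onset or after pain is established. RNA was sequenced from spinal cord segments L4 to L6 (in the methods, the dorsal horn quadrants on the side of the injured knee) of 22 wildtype male C57BL6J mice aged 12 to 14 weeks. All mice, controls included, had received 1 mg of monosodium iodoacetate (MIA), a cartilage-damaging agent, in the knee, and all were given a vesicular phospholipid gel, so no uninjured mice are among them. The gel held SAFit2 at 100 mg/kg or nothing (Vehicle), and it was given on days -3 and 4 (Early; the sample protocol writes day 3 for the first) or on days 20 and 27 (Late), with collection on day 30.

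With Vehicle there were 6 Early and 6 Late mice, and with SAFit2 there were 5 of each timing. Early and Late mice also carry different batch labels, so timing and batch cannot be told apart, and only SAFit2 against Vehicle within a timing is free of this. Depth was between 11352989 and 24433349 reads on genes per library, and the 78 genes together took between 0.195% and 0.266% of them. The shallowest libraries were Late SAFit2 replicates 4 and 5, at 11352989 and 11503386 reads. Values are log2 CPM (log2 of read counts scaled to a common library size), and a gene was called when limma gave a Benjamini-Hochberg adjusted p under 0.05 over all 16765 genes tested together with a change of at least 1.2-fold. Of the 78 genes, 77 passed the filter on low values, and the exception was Mrpl36, which had 78 reads over all libraries, none in 4 of them and at most 17 in any. The p-values measure the spread between these mice, and in bulk tissue fewer cells of a type and less RNA per cell cannot be told apart.

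The base composition of the coding sequence is shown first because it ran with the late values described below. The first 120 coding bases of 4 genes are given 5′ to 3′ with G and C in capitals, read from the mm10 genome and its gene annotation. Mrpl38 and Mrpl12 were lower, and Mrps33 and Mrpl1 higher, in Late SAFit2 mice.
Mrpl38: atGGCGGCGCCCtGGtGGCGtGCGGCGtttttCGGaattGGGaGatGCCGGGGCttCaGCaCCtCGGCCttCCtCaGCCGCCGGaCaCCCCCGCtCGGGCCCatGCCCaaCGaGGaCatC
Mrpl12: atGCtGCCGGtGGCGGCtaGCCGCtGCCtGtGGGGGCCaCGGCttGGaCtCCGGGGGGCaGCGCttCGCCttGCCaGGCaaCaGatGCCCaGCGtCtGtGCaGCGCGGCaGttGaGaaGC
Mrps33: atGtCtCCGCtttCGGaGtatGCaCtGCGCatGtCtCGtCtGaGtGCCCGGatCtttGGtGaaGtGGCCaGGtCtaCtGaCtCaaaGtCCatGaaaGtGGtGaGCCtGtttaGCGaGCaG
Mrpl1: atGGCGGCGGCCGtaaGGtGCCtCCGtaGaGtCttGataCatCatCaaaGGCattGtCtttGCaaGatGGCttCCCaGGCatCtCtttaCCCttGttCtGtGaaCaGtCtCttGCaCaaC
Mrpl38 lies on chr11:116131817-116138868, Mrpl12 on chr11:120484613-120489065, Mrps33 on chr6:39801804-39810988 and Mrpl1 on chr5:96209493-96266727, each a protein-coding gene. G and C made up 59.8% of the coding sequence of Mrpl38 and 59.7% of that of Mrpl12, against 49.4% for Mrps33 and 41.6% for Mrpl1. The 120 bases shown hold more G and C than the whole coding sequence in each of them, at 69.2%, 70.0%, 53.3% and 50% in the same order.

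Short motifs recurred in the promoters of the family. In the RefSeq windows on GRCm38.p6 (250 bases before to 50 after each start, both strands read), which matched 69 of the 78 genes, the ETS-type motif CCGGAAG was found in 26 of 69 members (37.7%) against 9.93% of all genes with a window and 16.9% of those in the expression table. The YY1-type motif AAGATGGC was found in 12 (17.4%, against 3.19% and 4.42%) and the NRF1-type motif CGCATGCG in 7 (10.1%, against 2.07% and 3.65%). NRF1 and ETS factors of the GABP type are known regulators of nuclear genes for mitochondrial proteins. The Sp1-type motif GGGGCGGGG stood in 18.8% of members (12.9% of all genes, 22.8% of those in the table) and TATAAA in 7.25% (15.7% and 9.53%). The ETS-type and YY1-type letters can share AAG where one follows the other, and a match describes the sequence only. The windows of Mrps12 and Mrps18c are printed because both hold the ETS-type letters and the genes moved in opposite directions in Late SAFit2 mice, with the ETS-type letters (CCGGAAG, or CTTCCGG on the other strand) and the YY1-type letters (here GCCATCTT, in Mrps12) in capitals.
Mrps12, chr7:28741772-28742071, minus strand: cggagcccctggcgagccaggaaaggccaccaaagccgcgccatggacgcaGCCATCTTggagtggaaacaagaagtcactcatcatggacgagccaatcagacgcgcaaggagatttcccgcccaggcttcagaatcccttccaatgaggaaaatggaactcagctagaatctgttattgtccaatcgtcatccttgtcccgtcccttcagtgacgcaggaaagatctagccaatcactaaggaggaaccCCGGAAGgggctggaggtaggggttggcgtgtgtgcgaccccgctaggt
Mrps18c, chr5:100798509-100798808, plus strand: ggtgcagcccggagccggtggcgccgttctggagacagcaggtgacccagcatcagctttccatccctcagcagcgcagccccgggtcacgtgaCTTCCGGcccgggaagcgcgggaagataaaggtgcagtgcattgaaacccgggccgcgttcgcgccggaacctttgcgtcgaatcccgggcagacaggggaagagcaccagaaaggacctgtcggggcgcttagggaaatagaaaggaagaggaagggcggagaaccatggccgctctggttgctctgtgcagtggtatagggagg
A start of another gene on the opposite strand lay within 1000 bases for 33 of 78 members (42.3%), against 10.9% of all protein-coding genes and 14.2% of those in the table. Starts on either side were counted, so pairs that run into each other are included with pairs that point away. Both genes printed above have one. Mrps12 starts 172 bases from Sars2, the mitochondrial seryl-tRNA synthetase, and Mrps18c starts 29 bases from Helq, a DNA helicase. Mrpl46 and Mrps11, a large and a small subunit gene, start 412 bases apart on opposite strands. Exons of 16 members overlap an exon of an opposite-strand gene, those of Mrpl27, Mrpl36, Mrpl44 and Mrps30 among the genes named here, and Mrps6 overlaps Slc5a3 on its own strand. The library kit was directional, but the strand setting of the counting is not given in the sources used here, so reads of such partners may be shared.

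In these cords the members spanned a wide range of levels. Levels are compared per length, as CPM per kb of transcript, and the median over the 78 genes was 23.3, with 24.6 for Mrpl and 19.1 for Mrps symbols. The highest mean over the 22 mice was that of Mrps21, a small-subunit protein with a bacterial counterpart, at 99.4 (70.7 to 131 between mice), followed by Mrpl20 at 86.2 and Mrpl42 at 85.7. Between these neighbours the ranges over mice overlapped, 63.8 to 126 for Mrpl20 and 59.1 to 118 for Mrpl42. The place of Mrpl42 rests on the transcript length used: with the longest transcript it ranked 37th of 78 at 17.3, whereas Mrps21 and Mrpl20 kept ranks 1 and 2. The lowest were Mrpl36 at 0.30, Mrpl57 at 5.34 (4.21 to 7.34) and Mrpl32 at 5.69 (3.19 to 9.52), of which Mrpl57 and Mrpl32 overlapped each other. With the longest transcript Mrpl36 stayed lowest, but Mrps17 at 1.15 and Mrps35 at 3.74 came next. Mrpl57 and Mrpl32 then ranked 74th and 72nd. The 3 paralogs of bacterial S18 differed: Mrps18a stood at 44.9 and Mrps18c at 44.8, whereas Mrps18b stood at 8.14 CPM per kb and had between 33 and 222 reads per library. With the longest transcript Mrps18a and Mrps18c were further apart, at 15.2 and 34.9, and Mrps18b was still the lowest of the 3 at 6.06. The SD of a gene between all mice on the log2 scale had a median of 0.26 over the 77 tested genes.

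**Figure D1:**
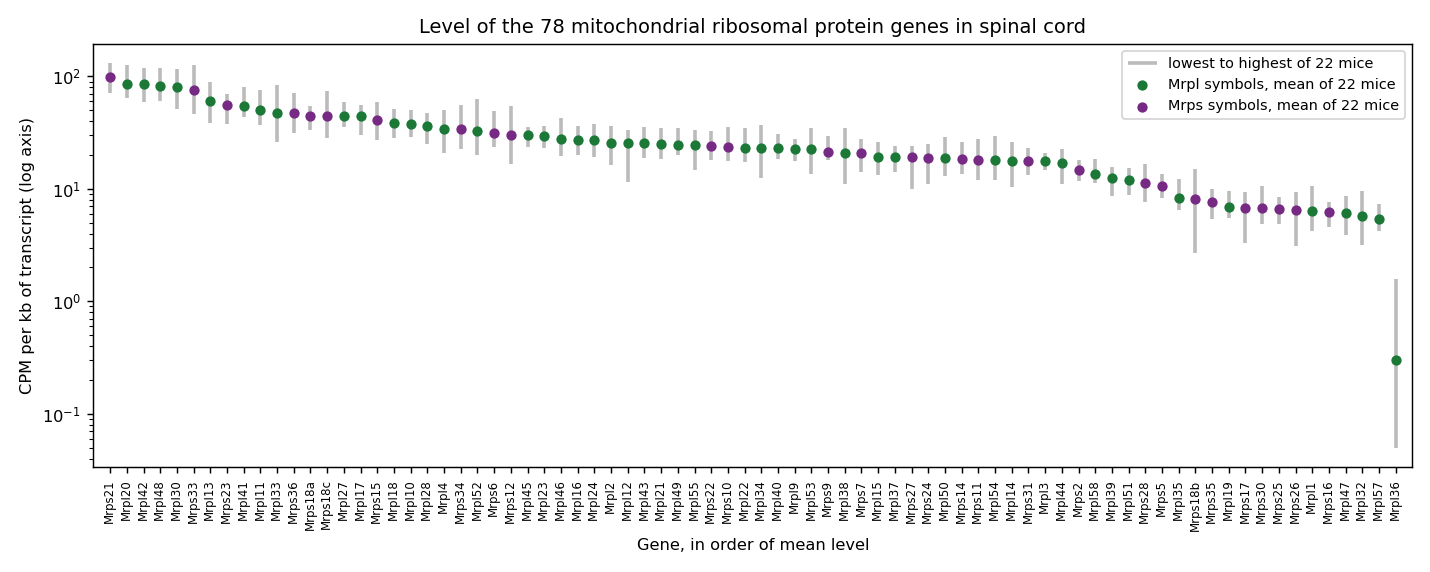
Each point is the mean level of 1 gene over 22 mice in CPM per kb of transcript on a log axis, in order of level, and each grey bar runs from the lowest to the highest mouse. Mrps21 is highest at 99.4 and Mrpl36 lowest at 0.30, where the bar is cut off at 0.05 because some libraries have no reads.

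In the late comparison, which asks what SAFit2 changed when pain was already established, 9 of 77 members were called (11.7%). Relative to Late Vehicle, 4 were higher and 5 were lower with Late SAFit2. Over all genes 12.1% were called, 5.33% higher and 6.72% lower, so the share of members was near the background. Mrpl38, Mrpl12, Mrpl4, Mrps12 and Mrpl2 fell, and Mrps33, Mrps18c, Mrpl1 and Mrpl30 rose, with 6 of the 9 in the large subunit by symbol. The median log2 fold change was 0.07 for the 77 members (0.07 for Mrpl, 0.04 for Mrps) against -0.05 for all genes, with 44 members above and 33 below 0. As a share of reads the members were lower in Late SAFit2 mice, with a mean of 0.214% against 0.234% in Late Vehicle mice. The direction over all members therefore depends on scaling. By place in the ribosome, 6 of 50 large-subunit and 3 of 26 small-subunit members were called. Of the 45 tested members with a bacterial counterpart 7 were called, and of the 31 specific to mitochondria 2.

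Among the genes that fell, Mrpl38, a large-subunit protein specific to mitochondria, had log2 CPM of 4.66, 4.53, 4.70, 3.97 and 4.37 in the 5 Late SAFit2 mice, against a lowest of 4.67, a median of 5.36 and a highest of 5.61 in the 6 Late Vehicle mice. The groups overlapped by 1 SAFit2 mouse, and the log2 fold change was -0.78 ± 0.17 (SE; limma, adjusted p = 0.0324). Mrpl12, the stalk protein that contacts translation factors, was at 4.86, 4.90, 4.71, 4.46 and 3.94 against 4.84, 5.31 and 5.44 (lowest, median and highest), with a log2 fold change of -0.65 ± 0.16 (SE, adjusted p = 0.0324). Here 3 of 5 SAFit2 mice lay below every Vehicle mouse. The exact two-sided permutation test of the group means, over all 462 splits, gave p = 0.00649 for Mrpl38 and p = 0.00866 for Mrpl12.

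Mrpl4, which lines the exit tunnel, was at 4.46, 4.52, 4.55, 4.11 and 4.08 against 4.46, 5.11 and 5.37, a log2 fold change of -0.64 ± 0.16 (SE, adjusted p = 0.0324, exact permutation p = 0.0195). Mrps12, a protein of the decoding centre, was at 4.50, 4.22, 4.24, 3.59 and 3.97 against 4.10, 4.69 and 5.31, a log2 fold change of -0.61 ± 0.19 (SE, adjusted p = 0.0416, exact permutation p = 0.0325). Mrpl2, which sits at the peptidyl transferase centre and was named after its values were seen, was at 4.99, 4.63, 4.25, 4.03 and 4.35 against 4.52, 4.94 and 5.17, a log2 fold change of -0.47 ± 0.16 (SE, adjusted p = 0.0496, exact permutation p = 0.0368). In each of these genes the groups overlapped, and the lowest Late Vehicle mouse was replicate 6.

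Among the genes that rose, Mrpl30, a large-subunit protein with a bacterial counterpart, had 6.28, 6.12, 5.99, 6.09 and 6.27 in the Late SAFit2 mice against 5.49, 5.61 and 5.90 (lowest, median and highest) in the Late Vehicle mice. The groups did not overlap, and the log2 fold change was 0.47 ± 0.13 (SE, adjusted p = 0.0339, exact permutation p = 0.00433). Mrps18c, a paralog of bacterial S18, was at 5.22, 5.21, 5.02, 5.17 and 5.47 against 4.33, 4.57 and 5.03, a log2 fold change of 0.61 ± 0.17 (SE, adjusted p = 0.0359, exact permutation p = 0.00649). In Mrps18c 4 of 5 SAFit2 mice lay above every Vehicle mouse.

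Mrps33, a small-subunit protein specific to mitochondria, was at 5.98, 6.15, 6.21, 6.51 and 6.27 against 5.27, 5.48 and 6.09, a log2 fold change of 0.61 ± 0.18 (SE, adjusted p = 0.0360, exact permutation p = 0.0173). Mrpl1, at the side stalk of the large subunit, was at 4.15, 4.86, 4.87, 5.18 and 4.94 against 3.87, 4.19 and 4.79, a log2 fold change of 0.54 ± 0.18 (SE, adjusted p = 0.0481, exact permutation p = 0.0325). Late SAFit2 replicate 1 was within the Vehicle range in both, and the highest Late Vehicle mouse in each of the 4 genes that rose was replicate 6.

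**Figure D2:**
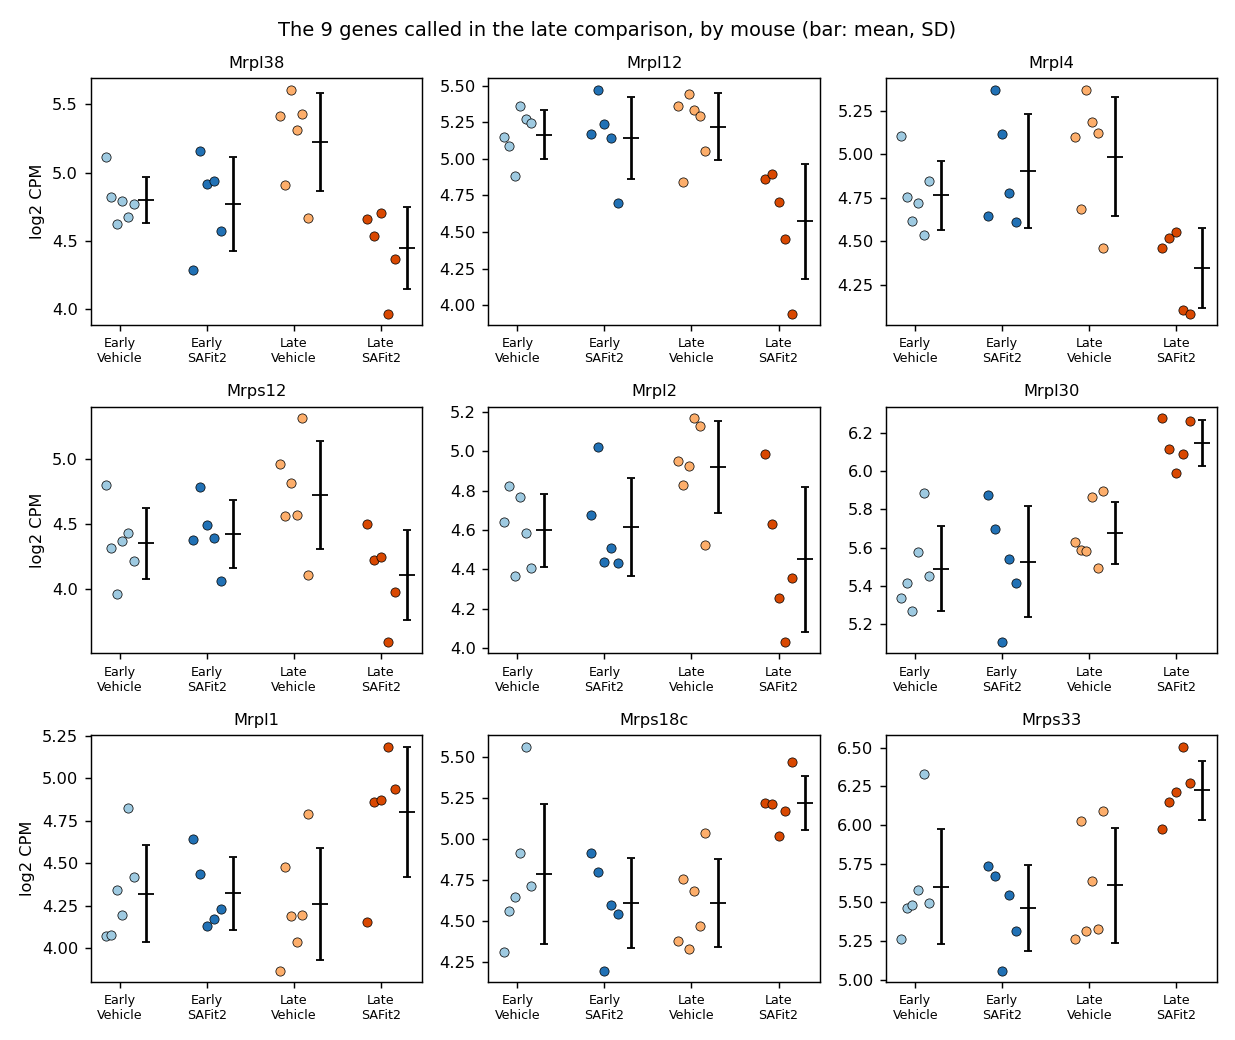
Each panel shows log2 CPM of 1 of the 9 called genes, with a point per mouse in the 4 groups and a bar for the mean and SD. The first 5 panels hold the genes that fell in Late SAFit2 mice and the last 4 those that rose, and of the 9 the late groups are fully apart in Mrpl30 alone.

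Groups that do not overlap were seen in 3 members (3.90%), against 1.71% of all genes: Mrpl30, Mrpl15 and Mrps30, each higher in Late SAFit2 mice. Mrpl15 was between 5.36 and 5.62 in Late SAFit2 and between 4.99 and 5.32 in Late Vehicle mice (log2 fold change 0.33 ± 0.12 SE, adjusted p = 0.063), and Mrps30 between 4.59 and 5.15 against between 4.38 and 4.59 (0.31 ± 0.13 SE, adjusted p = 0.0942). Neither was called. Mrps36, the dehydrogenase component, had 0.50 ± 0.18 (SE, adjusted p = 0.0624) and was not called. Mrpl45, which ties the ribosome to the inner membrane, had -0.11 ± 0.11 (SE), Mrpl58, a peptidyl-tRNA hydrolase built into the large subunit, 0.12 ± 0.13, Mrps18a -0.06 ± 0.13 and Mrps18b 0.04 ± 0.27, all far from the threshold. The highly expressed Mrps21, Mrpl20 and Mrpl42 had 0.13 ± 0.14, 0.19 ± 0.15 and 0.30 ± 0.13, and the weakly expressed Mrpl32 and Mrpl57 had 0.51 ± 0.21 and 0.07 ± 0.16, none of them called. Across the 77 members the late log2 fold change had no clear relation with level per kb (Spearman's rho 0.06, across genes that share the same libraries).

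The direction of the late values ran with base composition. Among the 26 members of lowest transcript GC content (38.6% to 46.9%) the median late log2 fold change was 0.29, with 23 above 0, and all 4 of the genes that rose were among them. Among the 26 of highest GC content (52.5% to 60.4%) the median was -0.25, with 20 below 0, and all 5 of the genes that fell were among them, whereas the 25 between had a median of 0.05 and no call. Spearman's rho between late log2 fold change and transcript GC was -0.69 over the 77 members and -0.68 over the 16213 genes with a GC value, and whether the members differ from the table in this was not tested. With GC of the coding sequence alone it was -0.80, with GC at the last base of each codon -0.70 and with GC of the promoter window -0.37 (68 members). The points share the same 11 libraries.

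**Figure D3:**
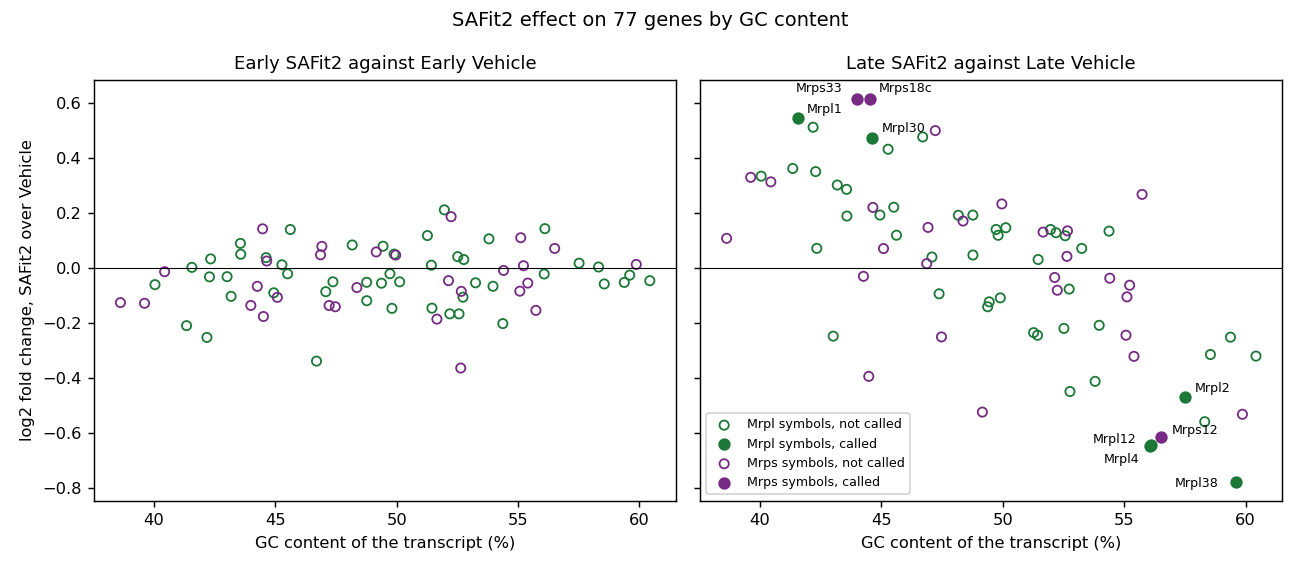
Each point is 1 of 77 genes, with GC content of its transcript in percent on the x axis and the log2 fold change of SAFit2 over Vehicle on the y axis, for the early (left) and late (right) comparison. In the late panel the points run from upper left to lower right (rho -0.69) with the 9 called genes, filled, at both ends, and in the early panel they lie flat (rho 0.12).

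The same slope was present in single libraries. Over all genes the GC slope of a library, relative to the mean of all libraries, was between -0.475 and -0.0531 log2 units per 10 GC points in Late SAFit2, and between -0.321 and 0.490 in Late Vehicle mice, in which replicates 2 (-0.163) and 6 (-0.321) were below 0. The mean log2 CPM of the 26 GC-rich members minus that of the 26 GC-poor members was between -0.872 and -0.600 in Late SAFit2 mice, and between -0.182 and -0.0228 in 4 Late Vehicle mice, with -0.637 and -0.686 in replicates 2 and 6. In Early mice it was between -0.569 and -0.0860 with Vehicle and between -0.560 and -0.168 with SAFit2. The share of reads from mitochondrially encoded genes was 12.7% to 14.9% in Late SAFit2 and 6.82% to 13.9% in Late Vehicle mice, and that of the brain cytoplasmic RNA Bc1 3.31% to 16.5% and 1.32% to 7.55%. With each library's trend on GC and length removed, 0 of 77 members were called late by limma (19, or 24.7%, at an unadjusted p under 0.05, against 15.4% of all genes, and a lowest adjusted p of 0.138) and 0 of 16213 genes, with -0.31 for Mrpl38, -0.37 for Mrpl12, 0.26 for Mrps33 and 0.22 for Mrpl1.

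**Figure D4:**
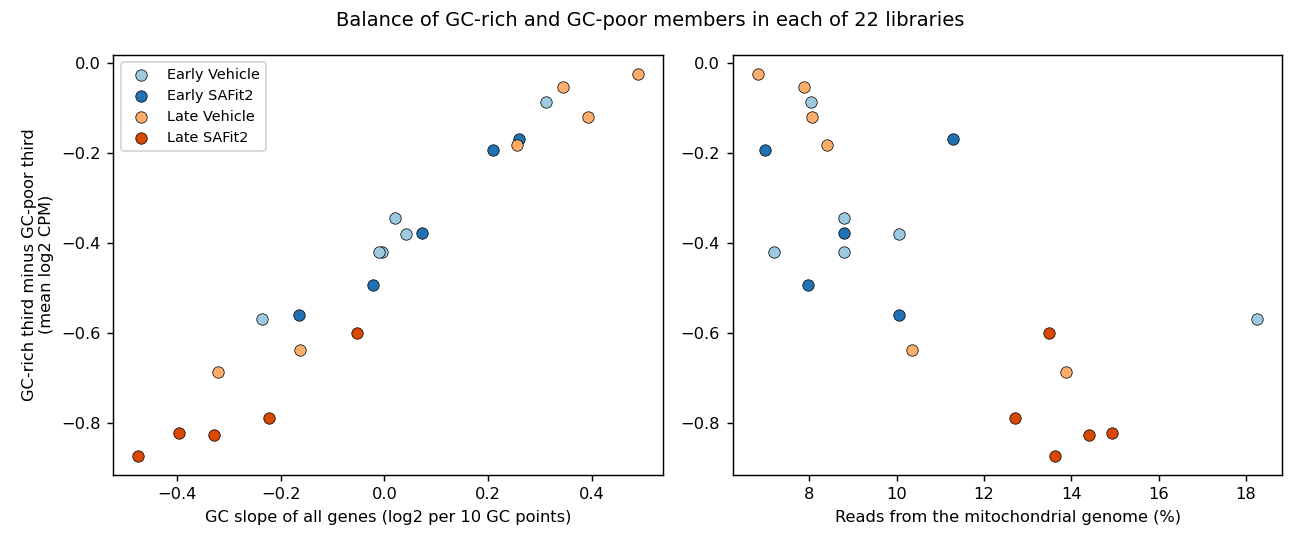
Each point is 1 of 22 libraries, coloured by group, with the mean log2 CPM of the 26 GC-rich minus that of the 26 GC-poor members on the y axis, and on the x axis the library's GC slope over all genes (left, log2 per 10 GC points) or its share of reads from mitochondrially encoded genes in percent (right). The 5 Late SAFit2 libraries lie between -0.872 and -0.600, and Late Vehicle replicates 2 and 6 at -0.637 and -0.686 lie among them.

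Leaving out single mice moved the late count between 0 and 20. Without any of Late SAFit2 replicates 2, 4 and 5 or Late Vehicle replicates 1, 3, 4 and 5 no member was called, without Late Vehicle replicate 2 there were 18 and without replicate 6 there were 20. With the 11 late mice fitted alone 0 members were called (24, or 31.2%, at an unadjusted p under 0.05, against 31.3% of all genes) with a lowest adjusted p of 0.0687, and limma voom on the reads called 6. The share of all genes called without single mice or with voom is not given here. These counts therefore do not set the members apart from the table.

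Members varied together between mice of a group, more so within a GC class. After removal of group means the median Pearson correlation over the 2926 pairs of members was 0.26, with 74.7% of pairs above 0. It was 0.39 among GC-poor members, 0.36 among GC-rich members and 0.13 between the classes, and 0.29 within Mrpl, 0.24 within Mrps and 0.25 between them. These values describe 22 shared libraries.

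Cell type markers were read beside the members. Of 13 lists with 48 markers in the table, 3 markers were called lower late, 1 each of dorsal horn neurons, endothelial cells and ependymal cells, and 1 of skeletal muscle higher. No marker was called in the early comparison or for the early minus late difference, and 5 were called higher in Late against Early Vehicle mice. The mean effect was read at an unadjusted p under 0.05, which 6.03% of all genes passed higher and 7.18% lower. By this looser rule 5 markers were higher and 7 lower. Among them were 4 of 4 ependymal markers lower (median log2 fold change -1.37) and 3 of 5 muscle markers higher (1.27). After adjustment no tested gene passed for the mean effect (limma, lowest adjusted p 0.301). The median of the ependymal markers was -2.49 early, with 3 of 4 at an unadjusted p under 0.05, and -0.67 late. That of the muscle markers was 2.33 late, with all 5 above 0 and 4 at an unadjusted p under 0.05, and 0.21 early. Summed ependymal markers were 13.2 to 22.6 CPM in Early SAFit2 and 18.1 to 39.7 CPM in Early Vehicle mice, and 16.2 to 34.6 CPM and 24.9 to 51.4 CPM in the late groups. The summed level of the 5 muscle markers was 2.30 to 196 CPM in Late SAFit2 and 1.68 to 4.24 CPM in Late Vehicle mice, the highest in 1 library. Summed neuronal markers were 4039 to 4420 CPM and 3368 to 4099 CPM, and motor neuron markers 24.1 to 222 CPM and 15.8 to 113 CPM, so both were detected in every library. None of the markers in the table was at 0 in all 22 libraries. The part of cell makeup in the members' values was not tested.

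In the early comparison no member was called and none was under an unadjusted p of 0.05, against 0% of genes called and 416 genes (2.48%) under that unadjusted p. The median log2 fold change of the members was -0.05 (all genes 0.01), with a range of -0.36 to 0.21 and with 30 members above 0. The lowest p values belonged to Mrpl44, Mrpl3 and Mrps27 among higher members and to Mrpl40, Mrpl33 and Mrps18b among lower ones. Mrpl44, a large-subunit protein related to RNA-processing nucleases, was at 4.54, 4.66, 4.46, 4.59 and 4.49 in Early SAFit2 and between 3.99 and 4.73 in Early Vehicle mice, a log2 fold change of 0.21 ± 0.12 (SE, exact permutation p = 0.126). Mrpl3, a core protein of the large subunit, had 0.14 ± 0.10 and Mrps27 0.19 ± 0.16, and Mrps27 had a lowest Early Vehicle value of 3.79 in replicate 5. Mrpl40 had -0.20 ± 0.14, Mrpl33 -0.34 ± 0.24 and Mrps18b -0.36 ± 0.27. The lowest Mrps18b value lay in Early SAFit2 replicate 1, with 33 reads. Groups that do not overlap were seen in no member, against 0.352% of all genes. The early and late comparisons share no mice. The 9 genes called late had early log2 fold changes between -0.18 for Mrps18c and 0.14 for Mrpl4.

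The difference between the early and the late effect was called for no member, as for 0% of all genes. At an unadjusted p under 0.05 there were 18 members (23.4%), against 24.9% of all genes. The lowest adjusted p was 0.12, shared by Mrpl4 (0.79 ± 0.23 SE, early minus late), Mrpl38 (0.75 ± 0.24), Mrps18c (-0.79 ± 0.25) and Mrps33 (-0.75 ± 0.25). Mrpl12 had 0.62 ± 0.22 (adjusted p = 0.122) and Mrpl32 -0.76 ± 0.30 (adjusted p = 0.135). The median was -0.11 for members and 0.05 for all genes, and a call in the late and none in the early comparison therefore does not show that the effects differ.

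The mean of both SAFit2 effects was read at an unadjusted p under 0.05, which 6 members passed (7.79%), against 13.2% of all genes, 6.03% higher and 7.18% lower. Mrpl30 (0.25 ± 0.09 SE) and Mrpl1 (0.27 ± 0.13) were higher, and Mrpl38 (-0.40 ± 0.12), Mrpl12 (-0.34 ± 0.11), Mrpl4 (-0.25 ± 0.12) and Mrps16 were lower, the last named after its values were seen. Mrpl44 had 0.17 ± 0.09 and narrowly missed this threshold. After adjustment no member passed, with a lowest adjusted p of 0.325, and the medians of members and of all genes were both -0.02. This comparison uses the mice of both the early and the late comparison, as the early minus late difference does.

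Late Vehicle against Early Vehicle mice, which differ in the days of gel and in batch label, gave no called member against 9.11% of all genes, 3.29% higher and 5.82% lower. At an unadjusted p under 0.05 there were 7 members (9.09%), all higher in Late Vehicle mice, against 24.3% of all genes, 11.2% higher and 13.0% lower. Of the 77 members 50 were above 0, with a median of 0.08 (all genes 0.01). Mrpl16 was at 4.86, 5.10 and 5.31 (lowest, median and highest) in Late Vehicle and at 4.56, 4.71 and 4.99 in Early Vehicle mice, a log2 fold change of 0.34 ± 0.11 (SE, adjusted p = 0.0633). Mrpl44 followed with 0.33 ± 0.12 (adjusted p = 0.0696) and Mrpl38 with 0.42 ± 0.16 (adjusted p = 0.101), whereas Mrpl41 had -0.24 ± 0.13, Mrpl58 -0.20 ± 0.12 and Mrpl27 -0.15 ± 0.11. The direction of the median depended on scaling: with library sizes that leave out Bc1 and the mitochondrially encoded genes the median of all genes moved by -0.11 and that of the members became -0.03, still above that of all genes at -0.10.

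The RNAs with which these proteins are assembled rose in Late SAFit2 mice. The rRNAs of the mitochondrial ribosome, mt-Rnr1 (12S) and mt-Rnr2 (16S), had log2 fold changes of 0.98 ± 0.29 (SE, adjusted p = 0.0385) and 0.97 ± 0.31 (adjusted p = 0.0439), both called. Late SAFit2 mice were between 12.34 and 13.19 log2 CPM for mt-Rnr1 and Late Vehicle mice between 11.19 and 12.67, so the groups overlapped. The libraries were made for mRNA, so these values describe the rRNA that such libraries carry. Of the 13 mitochondrially encoded protein genes, whose mRNAs this ribosome translates, 11 were called higher, with a median log2 fold change of 0.79. The lowest p values were those of ATP8 (1.41 ± 0.34) and ND3 (1.41 ± 0.35). The GC content of the 13 genes is low, with a median of 37.1%, and in the early comparison all 13 were below 0 with none called. As above, none of the 16213 tested genes with a GC value was called late once each library's trend on GC and length was removed.

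The proteins that serve the mitochondrial ribosome moved in both directions, as the members did. Of the 6 proteins under other symbols 1 was called, Gadd45gip1 (-0.56 ± 0.15, adjusted p = 0.0331), and the median was -0.02. Of 29 genes listed for assembly and rRNA modification, with genes of mitochondrial transcription among them, 3 were called lower and 1 higher (median -0.05). Ptcd1, which binds mitochondrial RNA, was between 3.11 and 4.04 in Late SAFit2 and between 3.95 and 4.60 in Late Vehicle mice (-0.68 ± 0.17, adjusted p = 0.0324), and Polrmt, the mitochondrial RNA polymerase, between 2.70 and 3.88 against between 3.74 and 4.82 (-0.82 ± 0.21, adjusted p = 0.0327). The others were Mettl17 (-1.08 ± 0.36), an assembly factor of the small subunit, and Tfb2m (0.46 ± 0.13), a transcription factor of the mitochondrial polymerase. Of 15 translation factors 1 was called, the RNA-binding protein gene Slirp (0.94 ± 0.24), and of 17 mitochondrial aminoacyl-tRNA synthetases 1, Aars2 (-0.70 ± 0.21), with medians of 0.06 and -0.21. Gadd45gip1, Mettl17, Tfb2m, Slirp and Aars2 were named after their values were seen.

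**Figure D5:**
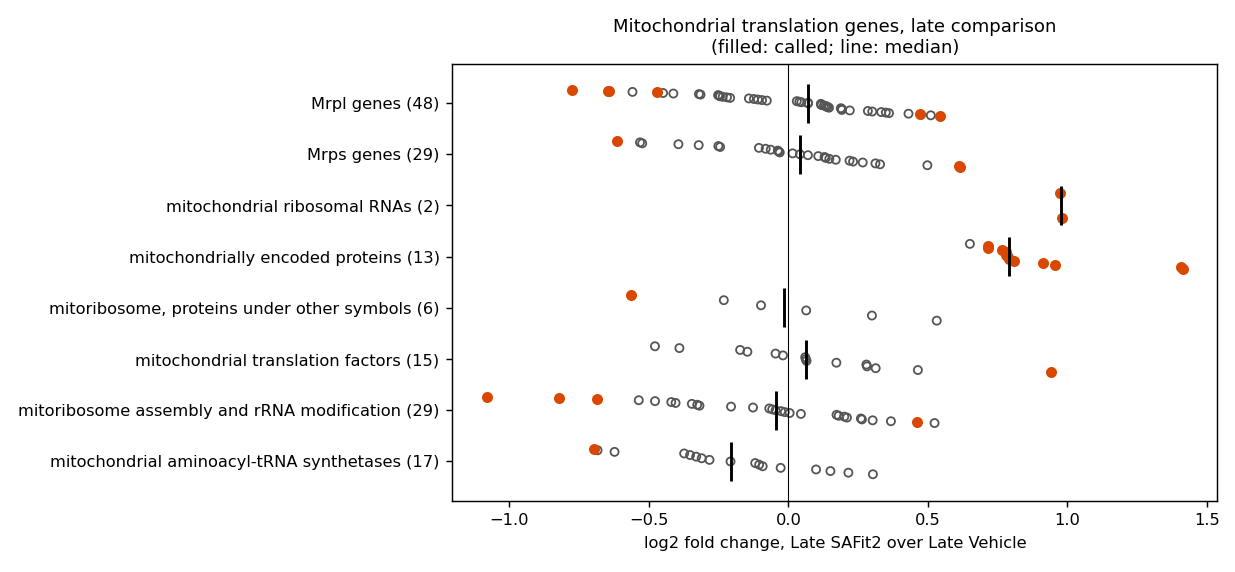
Each point is 1 gene with its log2 fold change of Late SAFit2 over Late Vehicle on the x axis, by list, with the number of genes in brackets, filled where called and with a line at the median. Mrpl and Mrps genes spread to both sides of 0 (medians 0.07 and 0.04), whereas the 2 rRNAs and 13 mitochondrially encoded protein genes lie to the right (0.98 and 0.79).

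Other large complexes gave similar shares in the late comparison. Of 84 cytosolic ribosomal protein genes 2 were called higher and 5 lower (median 0.14), and of 37 nuclear genes for complex I, which holds mitochondrially made subunits, 1 higher and 2 lower (median 0.05). In Late Vehicle against Early Vehicle mice 5 cytosolic ribosomal protein genes and 6 complex I genes were called higher, with medians of 0.21 and 0.23, against none of the mitochondrial ribosomal proteins, whose median was 0.08. The difference between these lists was not tested.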

How the data were processed

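The deposited values are log2 CPM of 17306 genes in 22 libraries, all columns of which were used. Per the labels and the methods, the authors trimmed reads (Trimmomatic), aligned them (HISAT2), used featureCounts for counts per gene on mm10, and edgeR for scaling; versions are not given in the sources used here. The floor and steps of the deposited log2 values gave a prior count of 2 reads, from which reads were worked back (100% whole within 0.02 reads; largest gap 0.00168) and used for depth and for limma voom. In 5 Early mice the title names SAFit1 where the treatment label names SAFit2, and grouping followed the latter.

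The 16765 genes reaching a log2 CPM of -1 in 5 or more libraries were fitted in R 4.3.3 with limma 3.58.1, with 4 group means and a variance trend, and p-values were adjusted by Benjamini-Hochberg over all of them. This test suits log2 values and was run on simulated data. There the genes varied independently, no GC trend was added for the calls, and the planted changes were larger than any of the members. The simulation therefore does not bear on calls made under the GC trend described above. Exact two-sided permutation tests (462 splits) were run for single members in Python 3.11.15. No p-value was adjusted over the members alone, and lists are described by counts and medians.

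Members and lists were chosen with earlier results of these data known. Named are the 3 members of lowest p in each direction of every comparison, the 3 highest and 3 lowest per kb, those without overlap in the late comparison and 9 chosen for their role, 29 in all, and of the other mitochondrial translation genes the 2 of lowest late p in each direction. Transcript length, GC content and coding sequence came from the mm10 annotation, and promoter windows from RefSeq (GRCm38.p6). GC correction removed a loess trend (span 0.5) on GC and length from each library. Cell type marker lists were neurons, dorsal horn neurons, motor neurons, oligodendrocytes and their precursors, astrocytes, microglia, endothelial, ependymal and red cells, fibroblasts, skeletal muscle and sensory ganglion neurons.

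The replicate numbers were not read as pairs: same-numbered SAFit2 and Vehicle mice had correlations of -0.236 to 0.317 in their deviations from group means (10 pairs, 2 above 0.1). Such correlations cannot show whether mice were paired. The paper describes treatment groups balanced within cages, and the labels used here give no cage. Alternatives were other filters and pseudocounts, no variance trend, library quality weights, an additive model, median centring, only the mice compared, the replicate block, GC correction, voom, and leaving out each mouse; library sizes without Bc1 and mitochondrial genes and the longest transcript were added after the data were seen.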

Additional observations from a re-analysis of the deposited data

Results flagged for a closer look

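Within single groups, 6 of 116 sets of values (29 members in 4 groups) held a mouse that stood apart by Dixon's ratio, and chance alone gives about 1 in 20. Early Vehicle replicate 5 was apart in 3 of the 6: Mrps27 was at 3.79 log2 CPM there against 4.61 in the next mouse, Mrps33 at 6.33 against 5.58, and Mrpl20 at 5.96 against 5.42. This library also had 18.3% of its reads from mitochondrially encoded genes, the highest share of the 22. Mrpl27 was at 4.81 in Late Vehicle replicate 2 (next 5.03), Mrpl41 at 5.50 in Late SAFit2 replicate 5 (next 4.97) and Mrps27 at 4.97 in Late SAFit2 replicate 2 (next 4.62). The part of library properties in these values was not tested.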

How the results depend on the processing

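Counts in this paragraph are of members only, and the share of all genes called under the same setting is not given beside them. They show how a count moves with the processing, and do not set the members apart from the table. The late count of 9 members was 0 without the variance trend, 0 with only the mice of the pair of groups and 0 after GC and length correction. It was 35 with library quality weights. Whether the replicate numbers stand for pairs is not known. With the replicate block, in which Vehicle replicate 6 has no partner, 16 members were called late. The block gave 11 for the mean effect (6 without it) and 4 for the early minus late difference (0 without it). GC and length correction with the block gave 0 late. Leaving out single mice gave 0 to 20 late. For the mean effect the count was 35 with quality weights, 0 with adjusted p and 3 to 17 without single mice: 3 without Early Vehicle replicate 1 or Late Vehicle replicate 5, and 10 to 17 without Early SAFit2 replicates 2 or 3, Early Vehicle replicates 3 or 5, Late SAFit2 replicate 1 or Late Vehicle replicates 2 or 6. The early minus late difference gave 20 with quality weights and 0 to 7 without single mice, 7 without Late Vehicle replicate 6. Late against Early Vehicle gave 17 with quality weights, 3 with median centring, 5 with GC and length correction, 4 with this and the block, 1 with voom, and 0 to 2 without single mice, 2 without Late Vehicle replicate 6 and 1 without Early Vehicle replicates 5 or 6. The early count was 0 under every alternative run. The median level per kb was 16.6 with the longest transcript in place of 23.3. Each comparison's median log2 fold change moved by less than the SD between mice. The causes were not tested.

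Late log2 fold changes were followed across the alternatives for 29 named members only. Those of them that changed sign were not called. With quality weights these were Mrpl27 (-0.017), Mrpl57 (-0.022) and Mrps18b (-0.12), and with the replicate block Mrps18b (-0.048). With GC and length correction they were Mrpl15 (-0.041), Mrpl16 (-0.072), Mrpl27 (-0.018), Mrpl3 (-0.038), Mrpl57 (-0.24), Mrps18a (0.23), Mrps27 (0.029) and Mrps30 (-0.054), and with this and the block Mrpl15 (-0.13), Mrpl16 (-0.14), Mrpl27 (-0.028), Mrpl3 (-0.024), Mrpl57 (-0.36), Mrps18a (0.23) and Mrps30 (-0.14). Without single mice Mrpl27 ranged from -0.075 to 0.11, Mrpl57 from -0.029 to 0.16, Mrps18a from -0.13 to 0.011 and Mrps18b from -0.15 to 0.14. Low read counts limit Mrps18b and Mrpl36, of which Mrpl36 was not tested and has exons that overlap an opposite-strand gene.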

Other observations

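Mrps30 and Mrps18a, counted by symbol with the small subunit, had late log2 fold changes of 0.31 and -0.06, and moving them with Mrps36 out of that list changed its late median from 0.04 to 0.03.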
